A study of Canis lupus familiaris with 10 samples.

Results

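The Rab genes encode the largest family of small GTPases of vesicle traffic. The members described here were all genes of the deposited table whose symbol is RAB followed by a number and at most a single letter, which gave 58 of the 23266 gene symbols. Of these, 46 were expressed highly enough to be tested between stages of canine cutaneous histiocytoma (CCH), and 12 were not. The members were chosen by name and not by their values.

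A Rab protein is active when it binds GTP and inactive when it binds GDP. Guanine nucleotide exchange factors switch it on, GTPase-activating proteins switch it off, and GDP dissociation inhibitors carry the inactive form between membranes. In its active form it recruits effectors that move, tether or fuse vesicles, and different Rabs mark the endoplasmic reticulum (ER), the Golgi apparatus, early and late endosomes, recycling endosomes, lysosomes and secretory granules. In immune cells this traffic serves antigen uptake and presentation, the recycling of surface receptors, and the release of granules and cytokines.

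CCH is a benign skin tumor of dogs that arises from Langerhans cells, the antigen-presenting dendritic cells of the epidermis, and it regresses on its own as lymphocytes infiltrate it. The comparison asked which Rab genes differ between early and late CCH. The 5 early samples belonged to group 1 of the histological scheme of Cockerell and Slauson, and the 5 late samples to group 3, which the labels call lymphocyte enriched. All samples were formalin-fixed, paraffin-embedded (FFPE) tumors of pet dogs, a different dog for each sample, and neither group had a labeled treatment. The early dogs were 0.5 to 5 years old (4 ages given) and the late dogs 1.5 to 9 years. RNA was measured with QuantSeq 3′, which makes short fragments next to the polyadenylated end of a transcript, so that values do not grow with transcript length and were compared between genes without a length correction. The P-values below measure the spread between dogs. The numbers 1 to 5 given to the libraries of a stage serve as names and do not link them to a dog.

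The unit is the normalized read count, meaning the reads of a gene divided by a size factor of the library. The reads counted on genes summed to 3132916 to 4439709 per library in early and 2973125 to 3230455 in late CCH. These sums are not the number of reads sequenced. A count of 3 reads, taken as the limit that a count of 0 allows, corresponded to a value of 2.36 to 3.22. The DV200, the percentage of longer RNA fragments, had a mean of 68.5 ± 2.46 for early and 73.2 ± 2.09 for late CCH (SD, n = 5 each). RNA extraction batches held samples of only 1 stage each, and stage therefore cannot be told apart from batch. The summed value of 9 T cell markers was 64.7 to 2234 in early and 4059 to 5824 in late CCH, and that of 6 cytotoxic lymphocyte markers was 155 to 3071 and 3110 to 8091. The summed value of 5 of 8 Langerhans and dendritic cell markers found in the table was 486 to 1458 in early and 179 to 342 in late CCH, and 4 of these 5 had a lower mean in late CCH. In bulk tissue, fewer cells of a type and less RNA per cell cannot be told apart.

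The log2 fold change (log2FC), taken as the late minus the early mean of log2(value + 1), was between -0.5 and 0.5 for 34 of the 46 Rab genes tested and for 7253 of all 12397 genes tested. It ranged from -1.60 for RAB27B to 3.29 for RAB19, with a median of -0.17, beside -0.004 over all genes. The low end depends on the scale, since RAB27B had -0.54 in edgeR and -0.56 in DESeq2. It was below 0 for 28 of the 46 Rab genes and for 50.2% of all genes. A gene was taken to have risen or fallen where limma gave a Benjamini-Yekutieli (BY) adjusted p of at most 0.05 and the log2FC was at least 1 in size. By this rule 1 Rab gene rose (RAB19) and 1 fell (RAB32), while 2.17% of all genes passed in either direction, 1.06% higher and 1.11% lower in late CCH. Without the fold threshold the same Rab genes passed, beside 2.44% of all genes, 1.11% higher and 1.34% lower. With the less strict Benjamini-Hochberg (BH) adjustment and the same fold threshold, 3 were higher (RAB13, RAB19 and RAB37) and 1 was lower (RAB32), a share of 8.70% beside 9.04% of all genes, 5.53% higher and 3.52% lower. Before any adjustment, 4 Rab genes were higher and 10 lower with a p of at most 0.05, which is 30.4% beside 30.9% of all genes, 15.6% higher and 15.3% lower.

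Smaller differences were mostly in the other direction. With BH adjustment and no fold threshold, 7 Rab genes were lower in late CCH, namely RAB8B, RAB10, RAB11A, RAB14, RAB18, RAB31 and RAB32, where 7.69% of all genes were lower. The genes higher in late CCH were again RAB13, RAB19 and RAB37, where 7.92% of all genes were higher. Both directions together gave 21.7% of the Rab genes tested and 15.6% of all genes. All late values lay below all early values for RAB32, RAB18, RAB14, RAB10 and RAB11A, and above them for RAB19 and RAB37, which is 15.2% of the Rab genes tested beside 12.0% of all genes, 6.05% lower and 5.91% higher. With the columns scaled by their totals, the median of all genes shifted to 0.08, and 4 instead of 7 Rab genes were lower with BH adjustment. When a single library was left out, 2 to 6 Rab genes were lower by this rule. The number was 2 without late library 4, and 3 without early library 5 or late library 2.

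**Figure D1:**
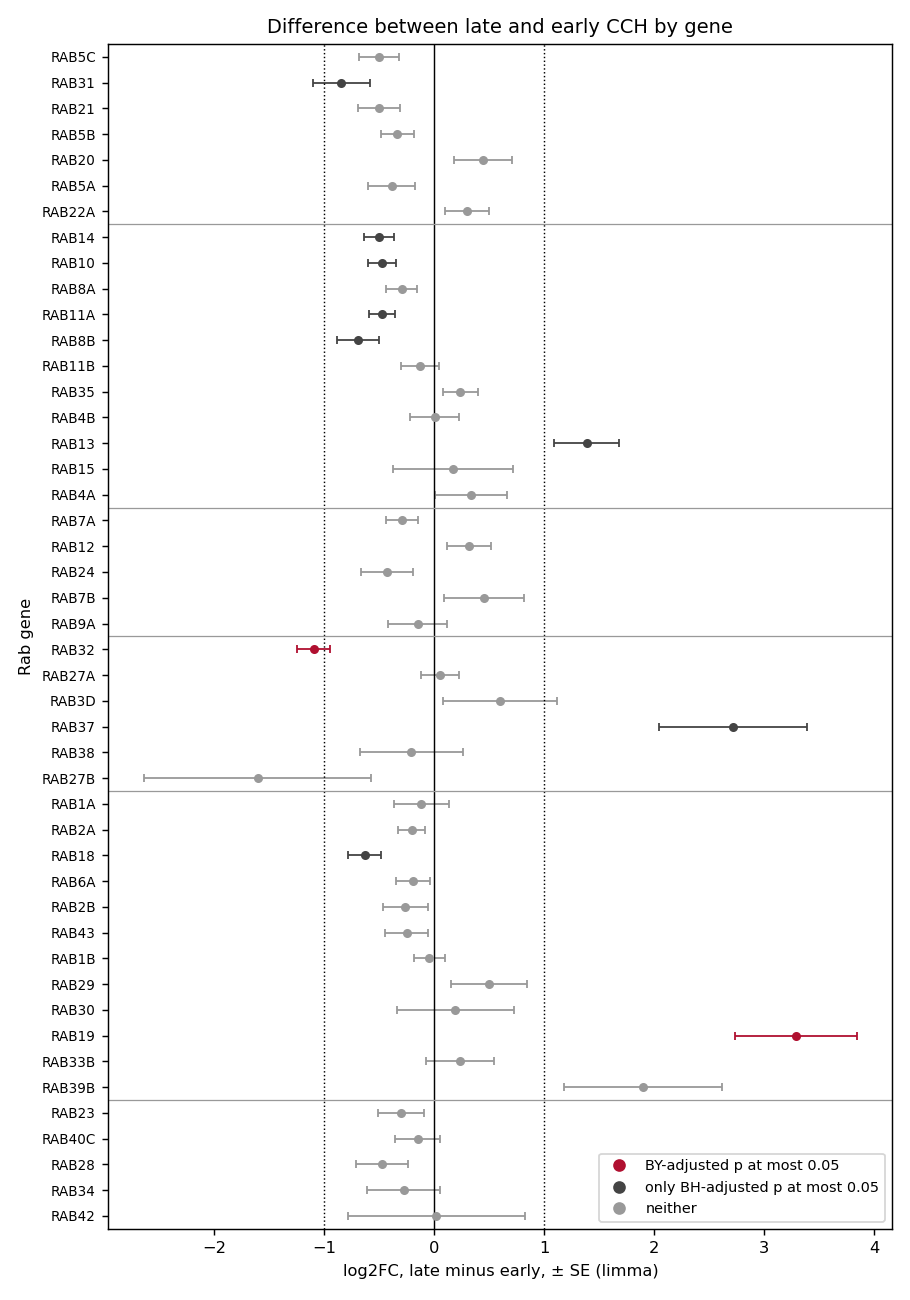
The log2FC (late minus early) of the 46 Rab genes tested, with bars for ± 1 standard error from limma. Genes are ordered by role as in the plot of values by library, dotted lines mark a log2FC of -1 and 1, and red points (RAB32 and RAB19) have a BY-adjusted p of at most 0.05.

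As a family, the 58 Rab genes took 0.413% ± 0.0206 of all values in early and 0.361% ± 0.0179 in late CCH (SD, n = 5 each). The share was 0.391% to 0.445% in the early and 0.340% to 0.389% in the late libraries, so that the groups did not overlap. Without RAB14, the most abundant member, the shares were 0.354% ± 0.0241 and 0.317% ± 0.0197, and the ranges overlapped. No test was made on these sums.

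The most abundant members were RAB14, RAB10, RAB5C, RAB8A and RAB1A, in this order by their mean over all libraries. Together they held 36.6% ± 1.71 of the Rab sum in early and 33.2% ± 1.50 in late CCH (SD, n = 5 each). RAB14 ranked above 98.1% of all genes tested, while RAB39B, the lowest of the Rab genes tested, ranked above 0.298%. The mean of a Rab gene was at least 100 for 30 genes in early and 34 in late CCH. The spread between dogs was moderate, with a median coefficient of variation of 25.3% in early and 21.7% in late CCH. It was lowest for RAB11A in early (4.95%) and RAB1B in late CCH (2.84%), and highest for RAB19 in early (121%) and RAB27B in late CCH (130%).

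**Figure D2:**
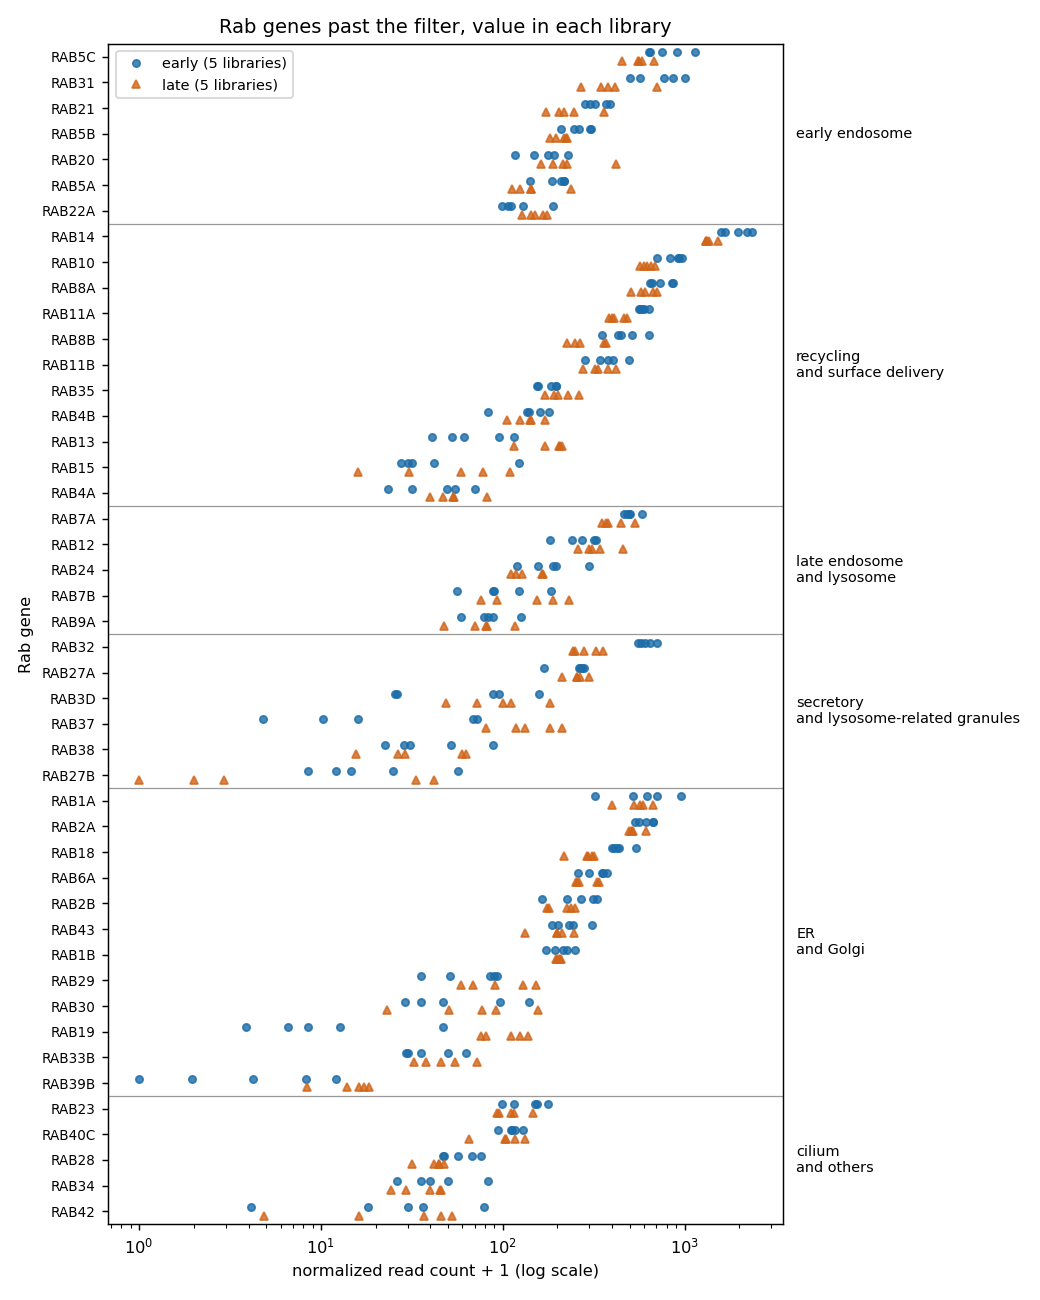
Normalized read count + 1 (log axis) of the 46 Rab genes tested in each of the 5 early (circles) and 5 late (triangles) libraries, grouped by role and ordered by mean within a role. RAB14 lies highest at 1308 to 2351, and RAB19 and RAB37 are the genes whose late libraries all lie above the early libraries.

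The Rabs of the early endosome had log2FC values below 0 in 5 of the 7 members tested, beside 50.2% of all genes. Their median was -0.39, and none passed the BY rule. RAB5A, RAB5B and RAB5C drive the fusion of early endosomes, and RAB5C was the most abundant of this group. RAB5C had values of 642, 1135, 636, 907 and 754 in early libraries 1 to 5 and 682, 564, 556, 452 and 579 in late libraries 1 to 5. The mean was 815 ± 210 in early and 567 ± 81.8 in late CCH, with overlapping groups and a log2FC of -0.50 (SE 0.18, limma, BH-adjusted p = 0.0791). RAB5C made up 63.6% ± 4.26 of the sum of the RAB5 genes in early and 61.1% ± 3.84 in late CCH, so that its lead over RAB5B and RAB5A was similar in size in both stages.

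RAB31, which acts between the Golgi and early endosomes, had the largest difference of this group. It had values of 773, 1004, 501, 568 and 864 in early and 707, 377, 267, 347 and 413 in late CCH. The first late library lay within the early range and the other 4 lay below it. The mean was 742 ± 208 in early and 422 ± 168 in late CCH, with a log2FC of -0.84 (SE 0.26, 95% interval -1.41 to -0.28), which passed the BH adjustment (adjusted p = 0.0448) but not the BY adjustment (adjusted p = 0.448, limma). RAB21, which follows integrins into endosomes, had a log2FC of -0.50 (SE 0.19) and RAB20, a Rab of phagosomes, 0.44 (SE 0.26), and both had overlapping groups. The log2FC was 0.30 for RAB22A, -0.34 for RAB5B and -0.39 for RAB5A.

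The Rabs of recycling and surface delivery held the largest part of the family, 40.3% ± 2.93 of the Rab sum in early and 38.5% ± 2.91 in late CCH. Of its 11 members tested, RAB14, RAB10, RAB11A and RAB8B were lower in late CCH with BH adjustment and no fold threshold, and RAB13 was higher. This is 45.5% of the members tested, beside 15.6% of all genes, 7.69% lower and 7.92% higher. RAB14, which links the Golgi and endosomes, had values of 1676, 1591, 1964, 2351 and 2199 in early and 1308, 1368, 1524, 1309 and 1328 in late CCH. Every late library lay below every early library. The mean was 1956 ± 327 in early and 1367 ± 91.1 in late CCH, with a log2FC of -0.50 (SE 0.14, 95% interval -0.80 to -0.20, limma, BH-adjusted p = 0.0296, BY-adjusted p = 0.297).

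RAB10, which brings receptors and transporters to the cell surface, had values of 708, 973, 827, 934 and 923 in early and 690, 565, 624, 595 and 650 in late CCH. The groups did not overlap, and the mean was 873 ± 107 in early and 625 ± 48.4 in late CCH, with a log2FC of -0.48 (SE 0.13, limma, BH-adjusted p = 0.0272). RAB11A, the marker of the recycling endosome, had values of 585, 600, 560, 634 and 569 in early and 480, 461, 384, 396 and 410 in late CCH. Its early libraries lay close together and all above the late libraries, with a log2FC of -0.47 (SE 0.12, limma, BH-adjusted p = 0.0208). RAB11A falls outside the rule for naming genes and was chosen after its values were seen.

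RAB8A and RAB8B act in exocytosis and at the cilium. RAB8B had values of 430, 445, 635, 352 and 510 in early and 360, 248, 369, 225 and 265 in late CCH, with 2 late libraries inside the early range. The log2FC of RAB8B was -0.69 (SE 0.19, limma, BH-adjusted p = 0.0318, BY-adjusted p = 0.319). The more abundant RAB8A had a mean of 752 ± 103 in early and 613 ± 78.5 in late CCH, with a log2FC of -0.29 (SE 0.14). RAB4B, a Rab of rapid recycling, was close to level, with 138 ± 36.0 and 136 ± 24.2 and a log2FC of 0.00 (SE 0.22, 95% interval -0.48 to 0.49).

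RAB13 differed from these recycling Rabs in direction. It is related to RAB8 and RAB10 and is known for delivering junction proteins to the surface of epithelial cells. Its values were 51.4, 94.0, 39.8, 115 and 60.1 in early and 204, 205, 114, 170 and 212 in late CCH. The groups touched, since late library 3 (114.3) lay just under early library 4 (115.0), and the other 4 late libraries lay above all early libraries. The mean was 72.1 ± 31.4 in early and 181 ± 40.7 in late CCH, at a log2FC of 1.39 (SE 0.29, 95% interval 0.75 to 2.02). RAB13 passed the BH adjustment (adjusted p = 0.00919) and missed the BY adjustment (adjusted p = 0.0919, limma). The BY-adjusted p was 0.0049 in DESeq2 and 0.117 in edgeR, and 0.0513 to 0.266 in limma without any single library. The remaining members, RAB4A, RAB11B, RAB15 and RAB35, had a log2FC between -0.13 and 0.33.

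Among the Rabs of the late endosome and lysosome, none of the 5 members tested had a p of at most 0.05 before adjustment (limma), beside 30.9% of all genes. Their log2FC lay between -0.43 (RAB24, a Rab of autophagy) and 0.45 (RAB7B), and the median was -0.15. RAB7A, which directs fusion with lysosomes, had values of 463, 479, 501, 583 and 492 in early and 445, 381, 349, 371 and 531 in late CCH. Its mean was 504 ± 46.6 in early and 415 ± 73.9 in late CCH, with a log2FC of -0.29 (SE 0.15, 95% interval -0.60 to 0.02). RAB7B, which acts between late endosomes and the Golgi, had 107 ± 48.3 and 148 ± 65.2 and a log2FC of 0.45 (SE 0.36). The log2FC of RAB12, a Rab of receptor degradation, was 0.32 and that of RAB9A, which returns cargo from late endosomes to the Golgi, was -0.15.

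The Rabs of secretory and lysosome-related granules held the gene that fell and some of the widest differences of the family. RAB32 takes part in the making of lysosome-related organelles together with RAB38. Its values were 646, 603, 573, 556 and 705 in early and 280, 248, 354, 325 and 242 in late CCH. The lowest early library lay well above the highest late library. The mean fell from 617 ± 60.3 to 290 ± 48.7 (SD, n = 5 each), with a log2FC of -1.10 (SE 0.15, 95% interval -1.41 to -0.78, limma, BY-adjusted p = 0.0138). The log2FC was between -1.17 and -1.04 without any single library, and the adjusted p was 0.0568 without early library 5 and 0.0509 without late library 2. Melanocyte markers, whose cells make the best known lysosome-related organelle, summed to 0 to 3.15 in early and 1.02 to 11.5 in late CCH. The Langerhans and dendritic cell markers given above, of which FLT3 and FCER1A fell, moved in the same direction as RAB32, and their part in the difference of RAB32 was not tested.

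RAB38, the close relative of RAB32, had much lower values, 43.5 ± 27.1 in early and 37.7 ± 21.3 in late CCH, with a log2FC of -0.21 (SE 0.47). RAB27A, which docks secretory lysosomes and the granules of cytotoxic cells, was close to level. Its values were 272, 168, 280, 261 and 266 in early and 254, 211, 266, 298 and 254 in late CCH. The log2FC was 0.05 (SE 0.17, 95% interval -0.32 to 0.43), beside the higher sum of cytotoxic lymphocyte markers in every late library. RAB27A falls outside the rule for naming genes and was added with its values known.

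RAB37, a Rab of secretory granules and cytokine release, stood out within the group. Its values were 3.81, 9.30, 71.5, 67.7 and 15.0 in early and 211, 131, 79.4, 182 and 118 in late CCH. Early libraries 3 and 4 lay close to the lowest late library, and the other 3 early libraries were far lower. The mean was 33.5 ± 33.2 in early and 144 ± 52.3 in late CCH, with a log2FC of 2.72 (SE 0.67, 95% interval 1.26 to 4.17, limma, BH-adjusted p = 0.0184, BY-adjusted p = 0.184). The early libraries 3 and 4 also had the highest T cell marker sums of their stage, 2234 and 1623, and their part in the values of RAB37 was not tested. RAB37 overlaps CD300LF, whose values were 12.0 ± 22.5 in early and 18.2 ± 11.7 in late CCH, and whether counting used the strand is not given in the sources used here.

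RAB27B and RAB3D varied more between dogs than between stages. RAB27B, a relative of RAB27A in exocytosis, had values of 23.8, 11.2, 13.6, 55.9 and 7.51 in early and 0.994, 40.9, 1.94, 0 and 32.5 in late CCH. Late libraries 2 and 5 lay within the early range and the other 3 were at or below the limit of 3 reads, and the log2FC was -1.60 (SE 1.03, limma, BH-adjusted p = 0.318). It was -0.84 with a pseudocount of 5 and between -2.30 and -0.95 without any single library. The same 2 late libraries had the highest keratinocyte marker sums of their stage, 8142 and 6339 beside 676 to 1841, and the part of keratinocytes was not tested. RAB3D, a Rab of secretory granules, had values of 87.6, 94.0, 25.3, 158 and 24.7 in early and 71.6, 181, 47.5, 110 and 99.7 in late CCH, with a log2FC of 0.60 (SE 0.52).

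**Figure D3:**
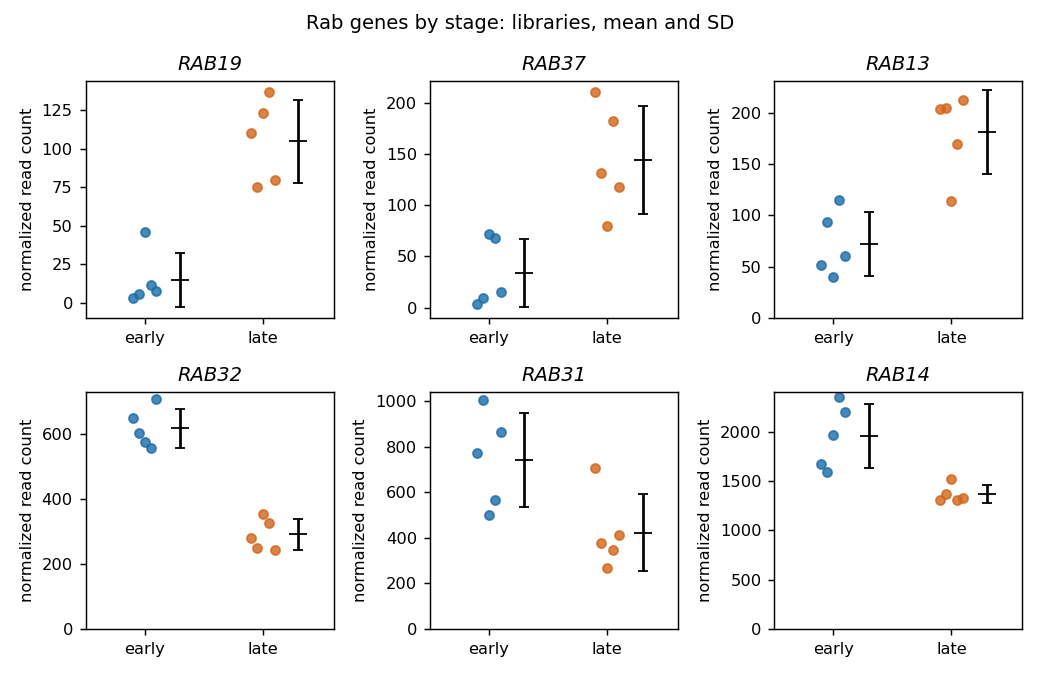
Normalized read count by stage for 6 Rab genes, with a point for each library and the mean ± SD beside it (n = 5 per stage). The late libraries of RAB19 (75.2 to 137) and RAB37 lie above the early libraries, those of RAB32 (242 to 354) and RAB14 lie below them, and the stages overlap for RAB13 and RAB31.

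Among the 12 Rabs of the ER and Golgi tested, RAB19 rose and none fell, and the median log2FC was -0.08. RAB19, a less studied Rab of the Golgi, had values of 2.86, 5.58, 46.1, 11.8 and 7.51 in early and 110, 75.2, 123, 137 and 79.7 in late CCH. Early library 3 stood apart from the other early libraries and still lay below every late library. RAB19 rose from 14.8 ± 17.8 to 105 ± 27.0 (SD, n = 5 each), with a log2FC of 3.29 (SE 0.55, 95% interval 2.09 to 4.49, limma, BY-adjusted p = 0.0384). The rise rests on 82 reads in early and 527 in late CCH. Leaving out any single library kept the log2FC between 2.93 and 3.83, but the BY-adjusted p stayed at or under 0.05 only without early library 3 (0.00592) and was 0.0571 to 0.141 without any of the other 9. It was 0.0987 in edgeR, while the BH-adjusted p with the fold threshold passed in all 10 fits that left out a library.

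The T cell markers were higher in the late stage, as RAB19 was. Early libraries 1 to 5 had T cell marker sums of 64.7, 730, 2234, 1623 and 235, and late libraries 1 to 5 had 5433, 4174, 4059, 5824 and 4902. Early library 3 was highest of its stage in both and early library 1 lowest in both, while the order differed elsewhere, since early library 5 had more RAB19 than early library 2 at a lower sum, and late library 3 had the lowest late sum and the second highest RAB19 value. The part of T cells in the difference was not tested. SLC37A3, a neighbor of RAB19 in the genome, differed by 0.89 on the log2 scale (SE 0.27, limma, BY-adjusted p = 0.445), and MKRN1, the neighbor on the other side, had -0.29 (SE 0.23). These genes are named only as neighbors.

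RAB1A, which moves vesicles from the ER to the Golgi, had values of 623, 955, 518, 321 and 706 in early and 667, 566, 400, 593 and 524 in late CCH. All late libraries lay within the early range, and the log2FC was -0.12 (SE 0.25), which turned to 0.06 without early library 2. RAB1B had the lowest spread within late CCH, with 210 ± 29.0 and 202 ± 5.75 and a log2FC of -0.05 (SE 0.14, 95% interval -0.35 to 0.26). RAB18, a Rab of the ER and of lipid droplets, had values of 424, 538, 408, 399 and 435 in early and 315, 295, 217, 308 and 291 in late CCH. Its groups did not overlap, and the log2FC was -0.63 (SE 0.15, 95% interval -0.95 to -0.31, limma, BH-adjusted p = 0.0150, BY-adjusted p = 0.150).

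RAB39B, a Rab of autophagy known from neurons, was close to the limit of detection. Its values were 0.952, 11.2, 7.24, 0 and 3.22 in early and 12.9, 15.2, 17.4, 16.4 and 7.34 in late CCH, from 24 and 70 reads. The groups overlapped, and the log2FC of 1.90 (SE 0.72) did not pass the BH adjustment (adjusted p = 0.0914, limma). The other ER and Golgi members tested (RAB2A, RAB2B, RAB6A, RAB29, RAB30, RAB33B and RAB43) had a log2FC between -0.26 and 0.50.

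In the mixed group of ciliary and other Rabs, 4 of the 5 members tested had a log2FC below 0, beside 50.2% of all genes. Their median was -0.28, and none had a p of at most 0.05 before adjustment (limma), beside 30.9% of all genes. RAB23, a negative regulator of hedgehog signaling, had values of 177, 114, 150, 97.7 and 154 in early and 110, 147, 114, 94.1 and 92.3 in late CCH, with a log2FC of -0.30 (SE 0.21). RAB28, a ciliary Rab, had 58.0 ± 12.8 in early and 41.1 ± 6.16 in late CCH, with a log2FC of -0.47 (SE 0.24) and overlapping groups. RAB34, RAB40C and RAB42 had log2FC values of -0.28, -0.15 and 0.02.

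The 12 members under the filter were RAB3A, RAB3B, RAB3C, RAB6B, RAB9B, RAB17, RAB25, RAB26, RAB36, RAB39A, RAB40B and RAB44. Several are known from neurons or epithelia, such as RAB3A at synapses and RAB17 and RAB25 in epithelial cells. Their values did not exceed 33.9 in any library, and 7 of them had a mean below 5 in both stages. In this group, RAB6B had 24 reads in early and 2 in late CCH, and RAB26 had 0 in early and 17 in late CCH. RAB6B is a relative of the Golgi Rab RAB6A. Its values were 5.71, 2.79, 6.33, 3.15 and 4.29 in early libraries and 0 in all late libraries but 1, which had 2.10. RAB26, a Rab of secretory granules, had 5, 7 and 5 reads in late libraries 1, 4 and 5. Both were chosen after their values were seen and were not tested. RAB9B and RAB17 had 6 and 4 reads in early and 0 in late CCH, which is not a detectable difference at this depth, and RAB44 had 3 reads in each stage.

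Related Rab genes were compared within each library by their log2 ratio, with 1 added to each value. Such a ratio depends little on how libraries are scaled, except where a value is close to the added 1. Of the 20 pairs listed, 14 had both genes past the filter, and each was tested with an exact two-sided permutation test. After BH adjustment over these 14 pairs 0 had a p of at most 0.05, and 3 had an unadjusted p of at most 0.05. With 5 against 5 libraries, fewer than 3 fully separate pairs could not have passed this adjustment. The log2 ratio of RAB10 to RAB13 was 3.68 ± 0.51 in early and 1.81 ± 0.37 in late CCH (SD, n = 5 each), and the early ratios of 3.01 to 4.34 did not overlap the late ratios of 1.46 to 2.44. The difference was -1.86 (exact permutation p = 0.00794, the lowest that 5 against 5 libraries allow, adjusted p = 0.111). For RAB22A to RAB31 the ratio was -2.55 ± 0.61 and -1.40 ± 0.38, with a difference of 1.14 (exact permutation p = 0.0159, adjusted p = 0.111). For RAB11A to RAB11B the difference was -0.34 (exact permutation p = 0.0397, adjusted p = 0.185).

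All ratios but that of RAB10 to RAB13 overlapped between the stages. The ratio of RAB27A to RAB27B had the widest range, from 2.34 to 8.22 in late CCH, and a difference of 1.66 (exact permutation p = 0.198). Its top value was set by the added 1, since RAB27B had 0 reads in late library 4. In late libraries 1 and 3 RAB27B had 1 and 2 reads. The ratios of RAB1A to RAB1B, RAB2A to RAB2B and RAB5A to RAB5B moved least, with differences of -0.07, 0.06 and -0.05.

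**Figure D4:**
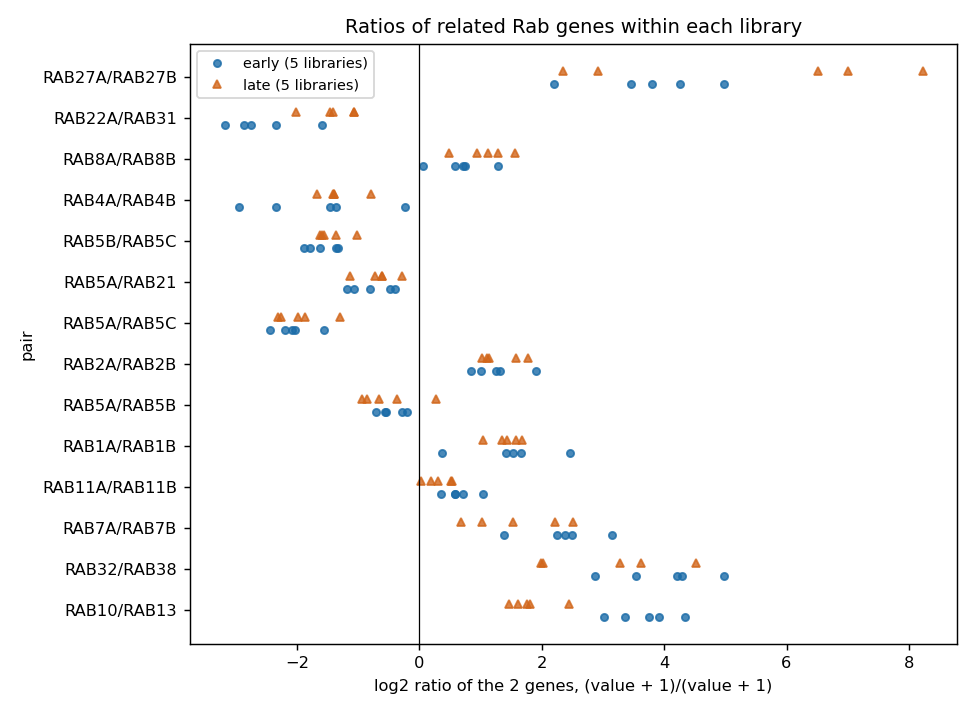
Log2 ratio of 14 pairs of related Rab genes, with 1 added to each value, in each of the 5 early (circles) and 5 late (triangles) libraries. The early and late ratios of RAB10 to RAB13 are separate, at 3.01 to 4.34 and 1.46 to 2.44, while the other 13 pairs overlap.

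The genes that control and read out Rab proteins were described from a list of 128 gene symbols of regulators and effectors. Of these symbols, 122 were in the table and 107 past the filter. An absent symbol can be another name of a gene that is also listed. By the BY rule 1 rose (TBC1D1) and 2 fell (RIN3 and DENND5A), a share of 2.80% beside 2.17% of all genes. With BH adjustment and the fold threshold, 9 were higher and 3 lower, a share of 11.2% beside 9.04%. The median log2FC was 0.01 over the whole list, -0.34 for the 10 genes of the membrane cycle, -0.12 for 32 exchange factors, 0.00 for 28 GTPase-activating proteins and 0.27 for 38 effectors, with LRRK2 in both the first and the last list.

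Among the genes of the membrane cycle, which lipidate, extract, stabilize or phosphorylate Rabs, 7 of 10 had a log2FC below 0, beside 50.2% of all genes. None of them passed the BY rule. An unadjusted p of at most 0.05 (limma) was found for 4, which is 40.0% beside 30.9% of all genes. The lowest was RABIF, a chaperone of Rab proteins that binds their nucleotide-free form, with 164 ± 36.4 in early and 89.3 ± 28.7 in late CCH and a log2FC of -0.89 (SE 0.25, limma, BH-adjusted p = 0.0287). The highest was LRRK2, a kinase of several Rabs, with 195 ± 81.8 and 257 ± 102 and a log2FC of 0.40 (SE 0.33). GDI2, the abundant GDP dissociation inhibitor, was chosen after its values were seen. It had 1282, 1044, 1322, 1649 and 1128 in early and 624, 770, 889, 801 and 867 in late CCH. The groups did not overlap, and the log2FC was -0.69 (SE 0.15, limma, BH-adjusted p = 0.0117, BY-adjusted p = 0.117).

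Of the exchange factors, those that fell act on endosomal or Golgi Rabs. RIN3, an exchange factor of the RAB5 family, had values of 81.9, 81.9, 82.3, 75.6 and 98.8 in early and 38.8, 34.2, 45.5, 29.7 and 30.4 in late CCH. All early libraries lay far above the late libraries, and the mean fell from 84.1 ± 8.66 to 35.7 ± 6.56 (log2FC -1.22, SE 0.21, limma, BY-adjusted p = 0.0401). The BY call held without late library 3 and was lost without any other single library, at adjusted p-values up to 0.134.

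DENND5A, an exchange factor of RAB39, had values of 362, 489, 306, 372 and 410 in early and 171, 196, 214, 171 and 166 in late CCH. The groups did not overlap, and the mean fell from 388 ± 68.0 to 184 ± 20.7 (log2FC -1.06, SE 0.16, limma, BY-adjusted p = 0.0206). The call was lost without early library 1, 2 or 5 and without late library 1, 2, 4 or 5, where the adjusted p reached up to 0.0802 or, without early library 2, the log2FC was -0.98. It was also lost with columns scaled by their totals (log2FC -0.98). The largest difference upward was that of DENND3, an exchange factor of RAB12, with 91.4, 199, 215, 174 and 105 in early and 327, 460, 298, 395 and 370 in late CCH. Its groups did not overlap, and the log2FC was 1.30 (SE 0.25, limma, BH-adjusted p = 0.00596, BY-adjusted p = 0.0596).

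Of the GTPase-activating proteins, TBC1D1 rose. It acts on Rabs of surface delivery such as RAB8A, RAB10 and RAB14. Its values were 35.2, 54.9, 60.6, 77.2 and 56.9 in early and 243, 173, 204, 227 and 172 in late CCH. Every late library was more than 2-fold above the highest early library, and the mean rose from 57.0 ± 15.0 to 204 ± 31.6 (log2FC 1.85, SE 0.22, limma, BY-adjusted p = 0.00812). The call held without any single library and under all other settings tried. TBC1D24 had 8.50 ± 6.02 in early and 49.0 ± 12.2 in late CCH, with a log2FC of 2.84 (SE 0.66, limma, BH-adjusted p = 0.0145, BY-adjusted p = 0.145) and groups that did not overlap. The lowest of this list was EVI5L, which acts on RAB23, with 257 ± 47.1 and 159 ± 56.5 and a log2FC of -0.75 (SE 0.25, limma, BH-adjusted p = 0.0623).

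The effectors had a log2FC above 0 in 26 of 38 genes, beside 6171 of all 12397 genes, and none passed the BY rule. An unadjusted p of at most 0.05 (limma) was found for 9 effectors, which is 23.7% beside 30.9% of all genes. SYTL3, a synaptotagmin-like protein that binds RAB27, had values of 11.4, 16.7, 44.3, 34.7 and 6.44 in early and 99.4, 104, 58.1, 79.8 and 79.7 in late CCH. The groups did not overlap, with early libraries 3 and 4 the highest of their stage as for RAB37, and the log2FC was 2.12 (SE 0.45, limma, BH-adjusted p = 0.00954, BY-adjusted p = 0.0955). RIMS1, a scaffold that binds RAB3 at sites of exocytosis, had values of 20.9, 13.0, 66.9, 67.7 and 112 in early and 0, 2.85, 4.84, 4.09 and 4.20 in late CCH. All late libraries lay close to the limit of 3 reads and below every early library, and the log2FC was -3.61 (SE 0.69, limma, BH-adjusted p = 0.00593, BY-adjusted p = 0.0593).

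**Figure D5:**
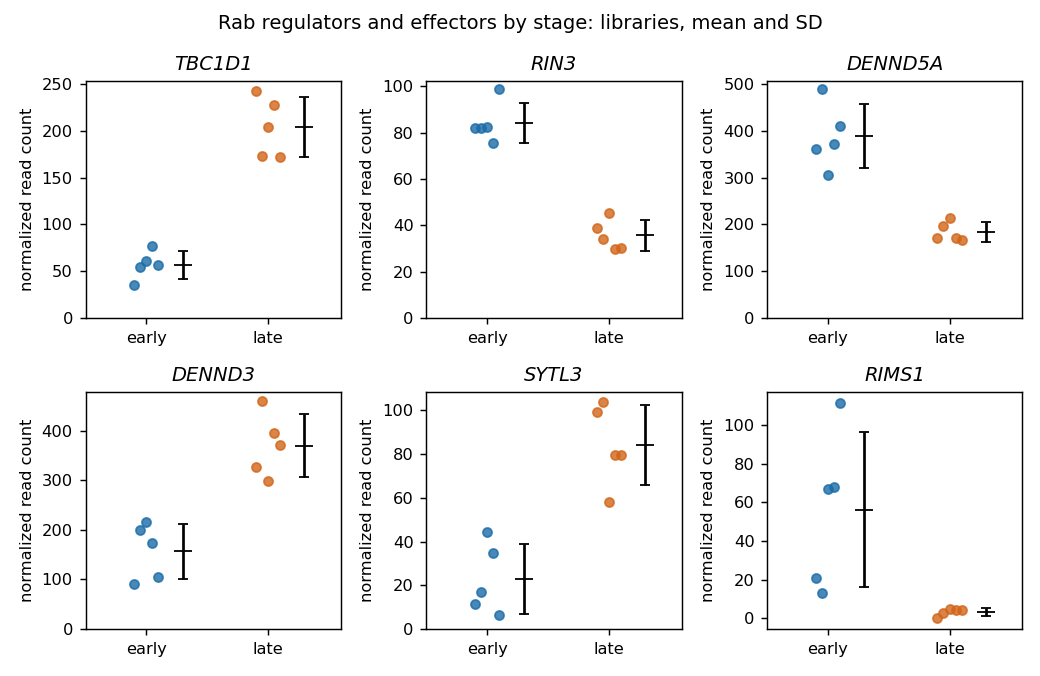
Normalized read count by stage for 6 Rab regulators and effectors, with a point for each library and the mean ± SD beside it (n = 5 per stage). Late libraries lie above early libraries for TBC1D1 (172 to 243 beside 35.2 to 77.2), DENND3 and SYTL3, and below them for RIN3, DENND5A and RIMS1.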

How the data were processed

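QuantSeq 3′ libraries were made by the authors from FFPE tissue of 5 early and 5 late CCH with the protocol for low-quality RNA. According to their methods, reads were trimmed (Cutadapt), aligned to CanFam3.1 (STAR), counted on RefSeq genes and then on genes extended by 2 kb (featureCounts, reads with several places counted in parts), and scaled. Tool versions are not given in the sources used here. The deposited values are a normalized signal, the read counts divided by 1 DESeq2 size factor per library. In all columns used, 100% of the 166096 values above 0 were whole multiples of 1 read (tolerance 0.01 reads), so counts split between related genes had been rounded. The other 11 value columns match no sample and were not used. Column names give the stage, and the sample labels do not hold the identifiers of the columns. RNA quality and age were therefore not linked to a library.

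The test was trend-moderated limma 3.58.1 (R 4.3.3) on log2(value + 1), over the 12397 genes that reached a value of 10 in 5 or more libraries. The added 1 shrinks ratios of low values, and a difference of mean logs can be larger or smaller than the log ratio of means. P-values were adjusted over all genes with BY, as in the study, at 0.05 and a log2FC of 1 in size, with BH, edgeR 4.0.16 and DESeq2 1.42.0 on the recovered reads among the alternatives. Ratios of related genes were tested over all 252 assignments of the libraries. The Rab genes, role groups, regulator and marker lists were chosen with earlier results of these data known. The rule for naming genes took those passing the fold threshold with BY or BH adjustment, the 10 largest log2FC and the 5 highest means. It also took the most abundant and most different of each role and, for regulators, those passing the BY rule and the extremes of each list. Gene neighbors came from the RefSeq table of UU_Cfam_GSD_1.0, in which all 58 Rab genes were found. The 95% intervals come from the limma fit and rest on the spread between the libraries of a stage. Read limits cover counting error only, and without molecular identifiers a read is no independent molecule.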

Additional observations from a re-analysis of the deposited data

Results flagged for a closer look

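The 46 Rab genes tested, 14 regulators and effectors, the 14 ratios of related genes, the Rab share and the total reads counted on genes gave 152 groups of 5 libraries. They were examined for a library far from the others, measured as the gap between an extreme library and the next value, divided by the range of the group. This ratio was above 0.71 in 11 groups, where chance gives about 7.6.

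In early CCH it was 0.851 for RAB15 (122 in early library 5 beside 41.0 in the next), 0.838 for RAB27A (168 in early library 2 beside 261) and 0.793 for RAB19 (46.1 in early library 3 beside 11.8). It was 0.740 for RAB18 (538 in early library 2 beside 435) and 0.7103 for RIN3 (98.8 in early library 5 beside 82.3). In late CCH it was 0.775 for RAB2A (617 in late library 2 beside 521), 0.753 for RAB5A (236 in late library 5 beside 142) and 0.751 for RAB20 (421 in late library 4 beside 225). It was 0.750 for RAB18 (217 in late library 3 beside 291), 0.729 for HPS1 (79.4 in late library 3 beside 55.2) and 0.721 for RAB14 (1524 in late library 3 beside 1368).

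Without the library that stood apart, the BY-adjusted p of RAB19 in limma was 0.00592, beside 0.0384 with it, and that of RIN3 was 0.134, beside 0.0401 with it.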

How the results depend on the processing

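The Rab genes called higher (1, RAB19) numbered 3 with BH adjustment, with or without the fold threshold, 2 with library weights, 2 with DESeq2 and 0 with edgeR, in which RAB19 had an adjusted p of 0.0987, and 0 to 1 when a library was left out. The Rab genes called lower (1, RAB32) numbered 7 with BH adjustment and no fold threshold, and 0 to 1 when a library was left out, with 0 without early library 5 or late library 2. Without these libraries, 49 and 54 of all genes were called, beside 269. Regulators and effectors called higher (1) numbered 9 with BH adjustment, 12 with BH adjustment and no fold threshold, 3 with a pseudocount of 5, 2 with a filter at a mean of 50, 3 with column total scaling, 3 with library weights, 7 with DESeq2 and 1 to 3 when a library was left out. Those called lower (2) numbered 7 with BH adjustment and no fold threshold, 1 without a filter, 0 with column total scaling, 1 with edgeR and 0 to 2 when a library was left out. Without adjustment, 3 ratios of related genes differed (0 with adjustment). The log2FC of RAB1A ranged from -0.33 to 0.0597 when a library was left out, and was 0.0597 without early library 2. Of 681 further values of single genes under alternatives, 614 kept their direction and side of the threshold, 32 lost a call and 34 gained one. The cause was not tested for any of these changes. No paired analysis was possible because no replicate number in the column names links an early to a late library. Stage and RNA extraction batch cannot be told apart, and genes with fewer than 100 reads per stage, such as RAB39B and RAB6B, are limited by depth.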

Other observations

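Regulators and the Rabs they are known for can be set side by side, without a test of the pairs. DENND3 had a log2FC of 1.30 (SE 0.25) and its Rab, RAB12, 0.32 (SE 0.20), with groups that overlapped for RAB12 and not for DENND3. RIN3 fell with a log2FC of -1.22, and the members of the RAB5 family, on which it acts, and their relatives had -0.39 (RAB5A), -0.34 (RAB5B), -0.50 (RAB5C), -0.84 (RAB31), -0.50 (RAB21) and 0.30 (RAB22A). DENND5A fell with -1.06, while RAB39B had 1.90 (SE 0.72) from few reads and RAB39A had 37 reads in early and 10 in late CCH. TBC1D1 rose with 1.85, and RAB8A, RAB10 and RAB14 had -0.29, -0.48 and -0.50. SYTL3 had 2.12 and SYTL1 1.68, both with groups that did not overlap, while RAB27A, which they bind, had 0.05. The exchange complex of RAB32 and RAB38 is formed by HPS1 and HPS4, which had -0.01 (SE 0.29) and -0.70 (SE 0.27), beside -1.10 for RAB32 and -0.21 for RAB38. SYTL1, HPS1 and HPS4 were chosen after their values were seen.

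The make-up of the family by role was similar in both stages. Early endosome Rabs held 19.2% ± 2.23 of the Rab sum in early and 17.6% ± 1.40 in late CCH (SD, n = 5 each), and ER and Golgi Rabs 21.4% ± 1.38 and 23.2% ± 1.24. Granule Rabs held 7.77% ± 0.94 and 7.79% ± 0.56, although RAB32 fell and RAB37 was higher within this group. Late endosome and lysosome Rabs held 8.43% ± 0.96 and 9.88% ± 1.04. The ranges of the stages overlapped for each of these groups.

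The BY rule was passed by 1 of 9 T cell markers (CD6), 0 of 6 cytotoxic lymphocyte markers, and FLT3 and FCER1A. None of the other cell type markers tested passed it. Their summed values in early and late libraries were 479 to 721 and 599 to 3147 for B cells, 200 to 394 and 166 to 572 for plasma cells, 1133 to 8870 and 5021 to 9984 for macrophages, 39.7 to 150 and 28.6 to 78.4 for mast cells, 388 to 906 and 616 to 1182 for endothelium, and 7615 to 60438 and 10533 to 35601 for fibroblasts. Keratinocyte markers summed to 905 to 16053 in early and 676 to 8142 in late CCH. The ranges of the stages overlapped for each of these lists.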
